A study of Mus musculus with 6 samples.

Results

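Transforming growth factor beta (TGF-beta) and activin signalling was described through 10 genes: the ligand genes Tgfb1, Tgfb2, Tgfb3 and Inhba, the receptor genes Tgfbr1, Tgfbr2 and Tgfbr3, the latent TGF-beta binding protein genes Ltbp1 and Ltbp2, and the antagonist gene Fst. They were chosen by name, with earlier results of these data known, and all 10 were found among the 55471 genes of the count table. Poly(A) RNA was sequenced from primary osteoblasts, the bone-forming cells, released by enzyme digestion from the skull cap of 3-day-old C57BL/6 mice. The cells were cultured for 3 days before harvest. Libraries labelled TCKO came from mice carrying Prx1-Cre and floxed alleles of Tet1, Tet2 and Tet3 (fl/fl at each of the 3 genes), and libraries labelled WT came from mice labelled wild type, with 3 libraries per genotype. The labels do not say whether the wild type mice carried floxed alleles. The TET enzymes oxidise methylated cytosine in DNA. Prx1-Cre is active in limb mesenchyme and in part of the skull mesenchyme, so a culture can hold cells in which it never acted.

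TGF-beta ligands are secreted in a latent form that is bound to the matrix through LTBP proteins and must be released before it can act. Active TGF-beta binds a type II receptor, which recruits and phosphorylates a type I receptor, and the pair passes the signal to SMAD proteins that enter the nucleus. Activins, dimers of inhibin beta subunits, use their own receptors but the same SMADs, and follistatin binds activins and keeps them from their receptors. In bone, TGF-beta is stored in the matrix and acts on osteoblast precursors.

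Total counts ranged from 8019999 to 10177214 per library, and no member had fewer than 186 counts in any library. Replicates 1 and 2 of each genotype were close to each other (chi-square per degree of freedom 1.69 in WT and 2.04 in TCKO, both above the value of 1 that sampling alone gives) and were kept as separate libraries, whereas pairs with replicate 3 gave 16.5 to 23.3. TCKO replicate 3 carried the transcripts of a female and the other 5 libraries those of a male, so sex and genotype were not balanced. Nothing in the labels says whether the libraries came from separate animals or cultures, so the p-values measure the spread between these libraries, which may be technical. Gene counts span parts of the Tet genes outside any deleted exon and therefore test the deletion only weakly. Tet1 fell by 0.97 on the log2 scale (SE 0.16, adjusted p = 0.00648, Benjamini-Hochberg method over an edgeR quasi-likelihood fit), Tet2 differed by -0.14 (SE 0.14, adjusted p = 0.545) and Tet3 was 1.42-fold higher in TCKO (adjusted p = 0.00745). The genotypes are used as labelled, although the gene counts of Tet2 and Tet3 were not called lower in TCKO.

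Of the 10 genes, 3 were higher in TCKO (Tgfb1, Tgfb2 and Inhba), 4 were lower (Tgfbr2, Tgfbr3, Ltbp2 and Fst), and Tgfb3, Tgfbr1 and Ltbp1 did not pass the test (adjusted p under 0.05). That is 7 of 10, beside 17.7% of all 13826 tested genes. Since the genes were chosen with earlier results known, this and the comparisons below describe the list and do not test it. The 3 higher members stand beside 9.07% of tested genes that were higher, and the 4 lower members beside 8.63% that were lower. A change of more than 2-fold was seen for 3 members (Inhba higher, Tgfbr2 and Ltbp2 lower), beside 6.35% of tested genes. The libraries of the genotypes did not overlap in 8 of the 10 members, beside 38.3% of tested genes. The median absolute log2 fold change was 0.71 for the members and 0.22 over all tested genes. The median signed change was -0.20 for the members and 0.00 over all tested genes. When replicates 1 and 2 were summed into a single library per genotype, 1 of the 10 members passed, beside 2.79% of all tested genes. Chondrocyte markers moved with genotype in the same libraries, from a summed 6450.4 to 8315 CPM (counts scaled to a common library size) in WT to 745 to 1019.6 CPM in TCKO, and their part in these values was not tested. In bulk samples fewer cells of a type and less RNA per cell cannot be told apart.

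**Figure D1:**
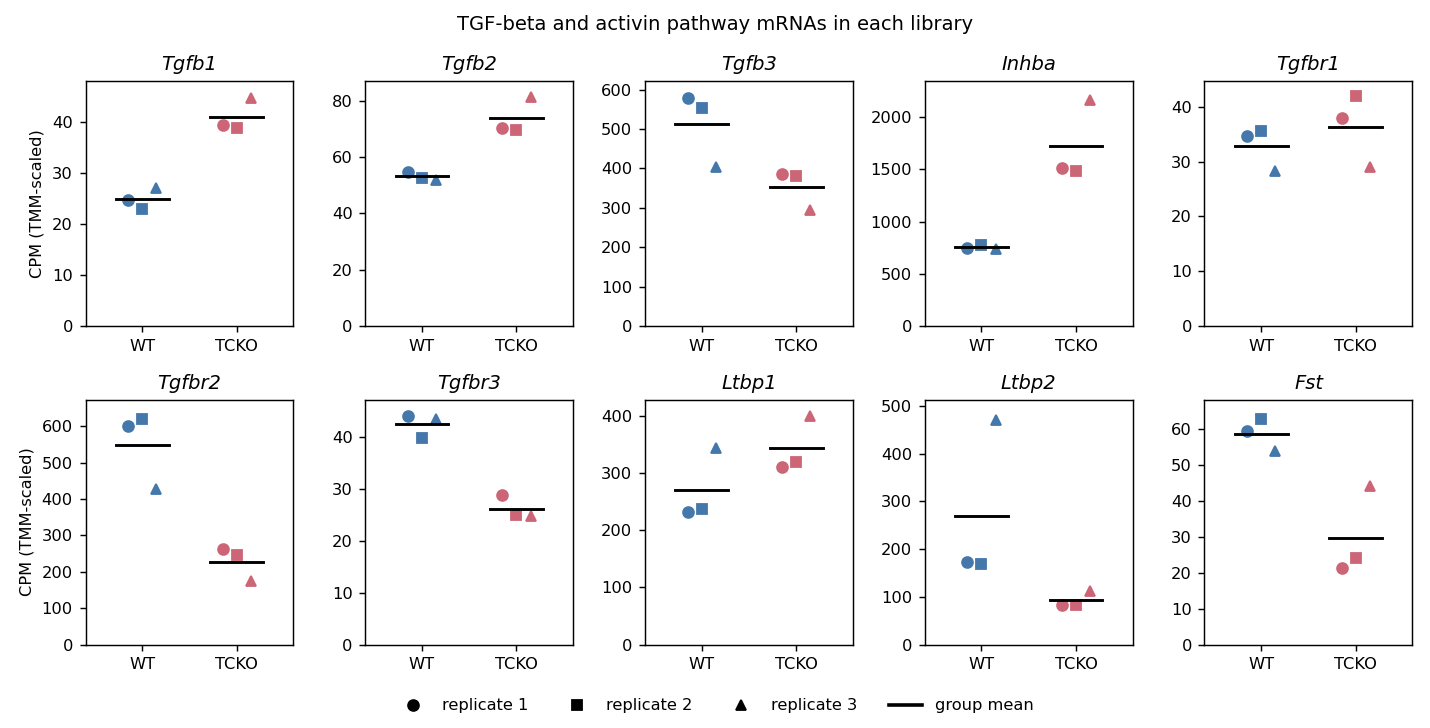
Level of each of the 10 genes in the 3 WT and 3 TCKO libraries, in CPM (TMM-scaled counts, axes from 0), with replicates 1 to 3 as circles, squares and triangles and the group mean as a bar. The genotypes do not overlap in 8 genes; Tgfbr1 and Ltbp1 overlap.

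The 3 members past 2-fold are shown first by their promoters, since the TET enzymes act on cytosine in CpG dinucleotides. Each line is 250 bases before to 50 bases after the RefSeq start on GRCm38.p6, which lies 0, 3 and 41 bases from the 5′ end of the gene in the count table for Inhba, Tgfbr2 and Ltbp2, 5′ to 3′ on the gene's own strand, with each CpG in capitals.
Inhba, chr13:16011601-16011900, plus strand: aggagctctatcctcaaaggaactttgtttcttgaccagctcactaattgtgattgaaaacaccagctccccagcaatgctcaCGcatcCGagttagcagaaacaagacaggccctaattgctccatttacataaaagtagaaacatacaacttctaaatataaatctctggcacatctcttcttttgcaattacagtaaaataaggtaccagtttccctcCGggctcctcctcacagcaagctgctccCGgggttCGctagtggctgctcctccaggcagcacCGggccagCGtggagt
Tgfbr2, chr9:116175314-116175613, minus strand: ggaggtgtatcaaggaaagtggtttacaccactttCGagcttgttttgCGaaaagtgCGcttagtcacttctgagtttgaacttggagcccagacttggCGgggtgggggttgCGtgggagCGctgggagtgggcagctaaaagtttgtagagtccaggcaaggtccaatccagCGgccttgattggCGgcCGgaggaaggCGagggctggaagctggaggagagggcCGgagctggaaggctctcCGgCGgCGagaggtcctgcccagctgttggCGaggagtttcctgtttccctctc
Ltbp2, chr12:84876442-84876741, minus strand: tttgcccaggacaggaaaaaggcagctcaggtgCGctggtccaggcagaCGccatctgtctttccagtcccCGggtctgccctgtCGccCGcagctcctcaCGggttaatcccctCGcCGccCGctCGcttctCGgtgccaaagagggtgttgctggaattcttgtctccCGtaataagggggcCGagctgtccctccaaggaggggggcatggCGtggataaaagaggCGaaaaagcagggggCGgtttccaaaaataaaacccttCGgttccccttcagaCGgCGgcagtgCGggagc

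A promoter was found for 7 of the 10 members; Tgfb3, Tgfbr3 and Fst were not in the table. CpG numbers in the 300 bases ran from 7 (Inhba) to 34 (Tgfbr1), with 30 for Tgfb1, 20 for Ltbp2, 17 for Ltbp1, 15 for Tgfbr2 and 10 for Tgfb2. The median over 32851 promoters was 7. Of the members that were higher in TCKO, Inhba had the fewest CpGs of the 7 and Tgfb1 the second most. The letters TGTGGT, the core bound by RUNX proteins, were searched on both strands and occurred in 0 of the 7 promoters, against 16.8% of all promoters. The letters CAGACA, a SMAD-binding core, occurred in 1 of 7 (Tgfb2), against 21.0% of all promoters.

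Tgfb1 (ENSMUSG00000002603, chr7:25687002-25705077), the TGF-beta isoform that is abundant in bone matrix, had levels of 24.7, 22.9 and 27.0 CPM in WT replicates 1 to 3 and 39.4, 38.8 and 44.6 CPM in TCKO. Every TCKO library was above every WT library. The fitted difference was 0.72 on the log2 scale (SE 0.10, fold 1.65, adjusted p = 0.00318, edgeR), with 0.71 within replicates 1 and 2 and 0.72 within replicate 3. Tgfb2 (ENSMUSG00000039239, chr1:186622792-186705989), a second isoform, was at 54.7, 52.6 and 51.9 CPM in WT and 70.2, 69.5 and 81.3 CPM in TCKO. The genotypes again did not overlap, and the rise was smaller, 0.47 on the log2 scale (SE 0.09, fold 1.39, adjusted p = 0.00871, edgeR).

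Tgfb3 (ENSMUSG00000021253, chr12:86056745-86079041), the isoform with the highest level in these cells, was lower in every TCKO library. WT libraries held 578, 554 and 404 CPM and TCKO libraries 385, 382 and 293 CPM. The difference of -0.54 (SE 0.16) did not pass the test (adjusted p = 0.0562, edgeR). It passed with the replicate block, a fit that compares libraries of the same replicate number (adjusted p = 0.00288), and without WT replicate 3, the lowest WT library (adjusted p = 0.0108). DESeq2 called it as well (adjusted p = 0.0129). With the replicate block on summed replicates 1 and 2 it did not pass (adjusted p = 0.0622). In all, it passed in 6 of 17 alternative analyses.

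Inhba (ENSMUSG00000041324, chr13:16011851-16031621), the beta A subunit of activin A, rose most. WT libraries were at 748, 774 and 734 CPM and TCKO libraries at 1515, 1481 and 2162 CPM. The lowest TCKO library was well above the highest WT library, and TCKO replicate 3 was the highest of all. The difference was 1.19 on the log2 scale (SE 0.15, fold 2.29, adjusted p = 0.00199, edgeR), with 0.98 within replicates 1 and 2 and 1.56 within replicate 3. It was the 1 member that passed with replicates 1 and 2 summed (adjusted p = 0.0481).

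The receptors fell or did not pass. Tgfbr2 (ENSMUSG00000032440, chr9:116084293-116175360), the type II receptor that binds TGF-beta, was at 601, 619 and 428 CPM in WT and 262, 245 and 176 CPM in TCKO. The highest TCKO library was below the lowest WT library. The fall was 1.27 on the log2 scale (SE 0.19, 2.41-fold, adjusted p = 0.00382, edgeR), and was -1.27 within replicates 1 and 2 and -1.28 within replicate 3, although replicate 3 was the lowest library in each genotype. Tgfbr3 (ENSMUSG00000029287, chr5:107106570-107289629), the co-receptor betaglycan, was at 44.0, 39.8 and 43.4 CPM in WT and 28.8, 24.9 and 24.8 CPM in TCKO. It fell by 0.70 on the log2 scale (SE 0.10, 1.62-fold, adjusted p = 0.00278, edgeR), without overlap.

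Tgfbr1 (ENSMUSG00000007613, chr4:47353222-47414931), the type I receptor, held 34.6, 35.6 and 28.4 CPM in WT and 38.0, 41.9 and 29.1 CPM in TCKO. These ranges overlapped. The difference was 0.14 (SE 0.15, adjusted p = 0.569, edgeR), and it passed in 0 of 17 alternative analyses.

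The LTBP genes differed from each other. Ltbp2 (ENSMUSG00000002020, chr12:84783212-84876532), an LTBP protein that does not itself hold latent TGF-beta, was at 172, 169 and 469 CPM in WT and 81.8, 82.8 and 113 CPM in TCKO. No library overlapped, but WT replicate 3 stood far above the other WT libraries. The fall was 1.54 on the log2 scale (SE 0.39, 2.92-fold, adjusted p = 0.0325, edgeR), with -1.05 within replicates 1 and 2 and -2.05 within replicate 3. Without WT replicate 3 the fall was 0.88, or 1.84-fold (adjusted p = 0.0069), which was less than 2-fold and smaller than the change of Tgfbr2 (-1.42), Inhba (1.18) or Fst (-1.03) in the same libraries. The call was lost without TCKO replicate 1 (adjusted p = 0.113) and without TCKO replicate 2 (adjusted p = 0.112). Ltbp1 (ENSMUSG00000001870, chr17:75005568-75392512), which binds latent TGF-beta to the matrix, was at 231, 237 and 344 CPM in WT and 311, 319 and 399.7 CPM in TCKO. WT replicate 3 lay within the TCKO range. The difference of 0.34 (SE 0.17) did not pass (adjusted p = 0.209, edgeR), but passed with the replicate block (adjusted p = 0.0169) and without WT replicate 3 (adjusted p = 0.0192). With the replicate block on summed replicates 1 and 2 it did not pass (adjusted p = 0.179).

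Fst (ENSMUSG00000021765, chr13:114452290-114458951), which encodes follistatin, was at 59.4, 63.0 and 53.8 CPM in WT and 21.2, 24.1 and 44.1 CPM in TCKO. TCKO replicate 3 was the closest TCKO library to WT but still below every WT library. Fst fell by 0.98 on the log2 scale (SE 0.25, 1.97-fold, adjusted p = 0.0321, edgeR), with -1.43 within replicates 1 and 2 and -0.29 within replicate 3. The call was lost without WT replicate 1 (adjusted p = 0.0994), WT replicate 2 (0.112), TCKO replicate 1 (0.0915) or TCKO replicate 2 (0.111).

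**Figure D2:**
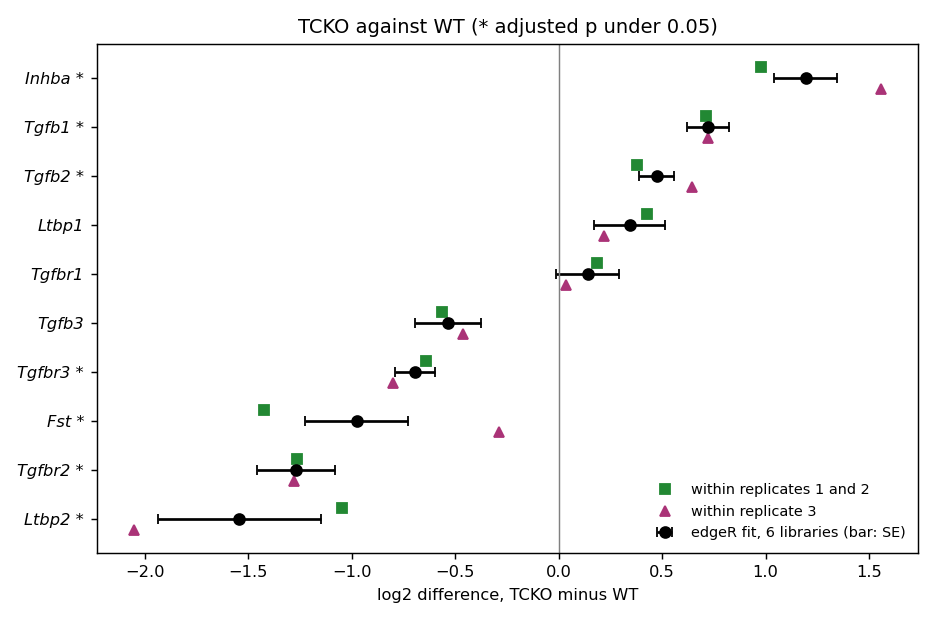
Log2 difference between TCKO and WT for the 10 genes (x axis), from the edgeR fit over 6 libraries with its SE (black), within replicates 1 and 2 (green squares) and within replicate 3 (purple triangles). All 3 estimates have the same sign for every gene; those of Fst (-1.43 and -0.29) and Ltbp2 (-1.05 and -2.05) lie farthest apart.

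Inhba and Fst moved in opposite directions, and their ratio was computed within each library from reads per kb of gene. It leaves out Inhbb, another inhibin beta subunit gene. Inhbb was at 116 RPKM (CPM per kb of gene) in WT and 134 in TCKO (log2 fold change 0.22, SE 0.07, adjusted p = 0.0694, edgeR). The ratio also leaves out the antagonist gene Fstl3 (4.52 RPKM in WT, 3.69 in TCKO, adjusted p = 0.355, edgeR). The ratio of Inhba to Fst was 9.03, 8.83 and 9.80 in WT and 51.3, 44.1 and 35.2 in TCKO. All TCKO libraries lay above all WT libraries. This was fixed by the single-gene values, since Inhba and Fst each did not overlap between genotypes and moved in opposite directions. The mean log2 ratio was 3.20 ± 0.08 (SD, n = 3) in WT and 5.43 ± 0.27 (SD, n = 3) in TCKO, a difference of 2.22. A two-sided exact permutation test gave p = 0.10, the smallest that 3 libraries against 3 allow. The value adjusted over the 4 shares and ratios tested was also 0.10. With the separation fixed beforehand, this test adds no support to that of the single genes.

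The make-up of the TGF-beta isoforms was computed the same way. Tgfb3 made up 92.3%, 92.3% and 89.3% of the summed isoform reads per kb in WT and 85.1%, 85.1% and 79.1% in TCKO. It remained the main isoform in every library. The share of Tgfb1 was 3.07% ± 0.81 (SD, n = 3) in WT and 6.58% ± 1.30 in TCKO, and that of Tgfb2 was 5.64% ± 0.92 in WT and 10.3% ± 2.17 in TCKO. The genotypes did not overlap for any of the 3 shares, each with an exact permutation p = 0.10 before and after adjustment. For all 3 shares this was fixed by the single-gene values, with Tgfb3 lower and Tgfb1 and Tgfb2 higher in every TCKO library. The summed isoform level was also lower, though narrowly, in every TCKO library than in every WT library. These tests therefore add no support to those of the single genes. The shares sum to the whole and are not independent of each other.

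**Figure D3:**
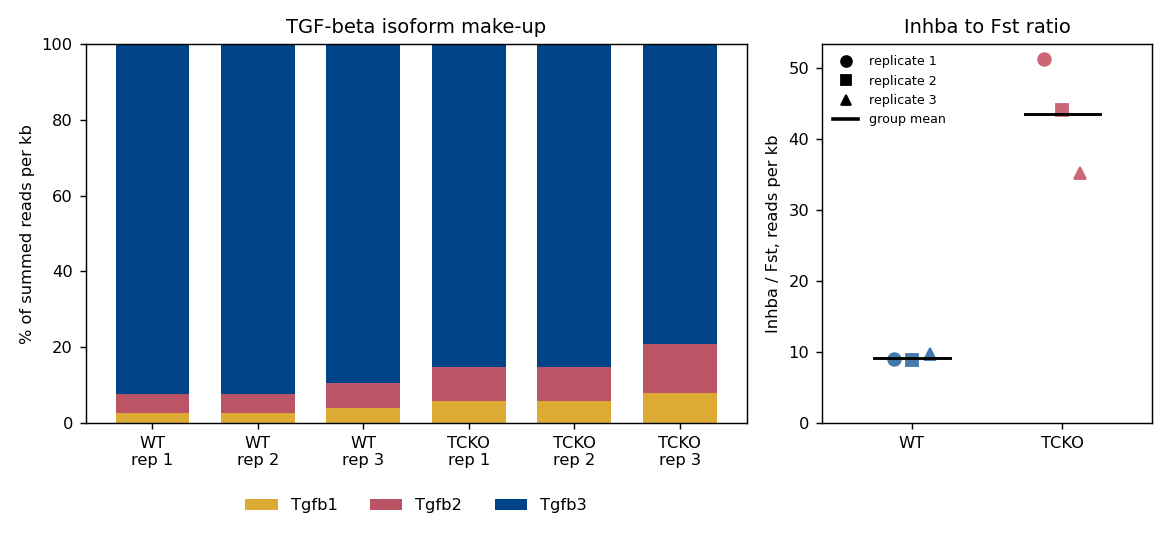
Left, share of Tgfb1, Tgfb2 and Tgfb3 in their summed reads per kb in each library (stacked bars, percent). Right, ratio of Inhba to Fst in reads per kb, with replicates as circles, squares and triangles and the group mean as a bar; WT libraries lie between 8.83 and 9.80 and TCKO libraries between 35.2 and 51.3.

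Levels between genes were compared in RPKM (CPM per kb of gene). In WT the order of mean level was Tgfb3 (151 ± 27.9, SD, n = 3), Inhba (118 ± 3.19), Tgfbr2 (67.1 ± 12.9), Ltbp2 (33.0 ± 21.1), Ltbp1 (25.3 ± 5.91), Fst (12.8 ± 1.01), Tgfb2 (9.16 ± 0.26), Tgfbr3 (6.48 ± 0.34), Tgfbr1 (5.03 ± 0.60) and Tgfb1 (4.93 ± 0.42). Neighbours whose libraries overlapped were Tgfb3 and Inhba, Tgfbr2 and Ltbp2, Ltbp2 and Ltbp1, and Tgfbr1 and Tgfb1. In TCKO Inhba led (269 ± 60.0) and was above Tgfb3 (104 ± 15.4) in every library. Ltbp1 (32.1 ± 4.58) and Tgfbr2 (27.8 ± 5.58) followed and overlapped. Tgfb2 (12.7 ± 1.15) and Ltbp2 (11.3 ± 2.16) overlapped, as did Tgfb1 (8.12 ± 0.64) with Fst (6.50 ± 2.71) and Fst with Tgfbr1 (5.56 ± 1.01). Tgfbr3 (3.99 ± 0.35) was lowest.

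**Figure D4:**
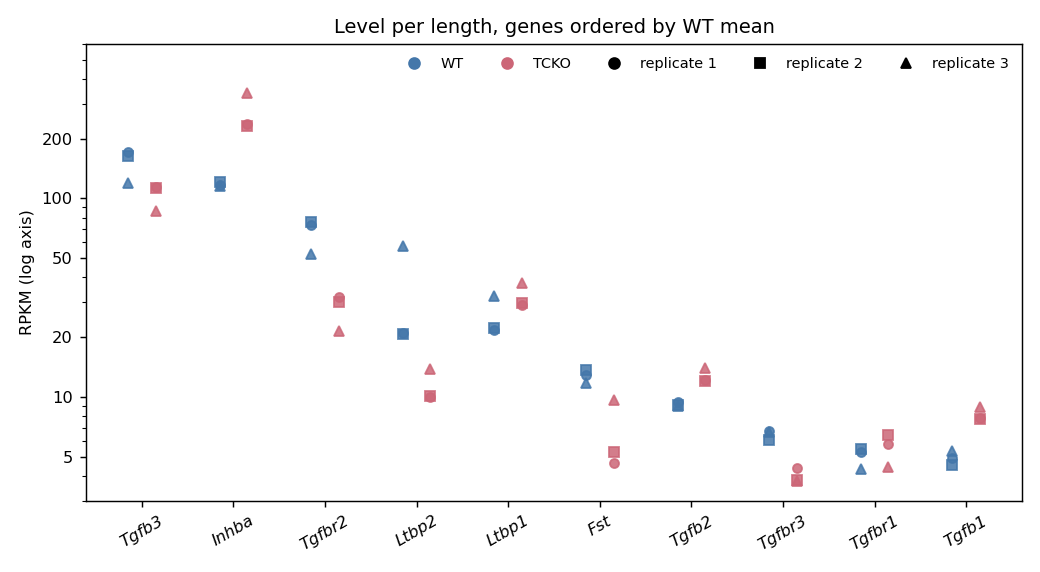
RPKM of the 10 genes on a log axis, ordered by WT mean, for WT (blue) and TCKO (red) libraries, with replicates as circles, squares and triangles. Tgfb3 leads in WT (mean 151) and Inhba in TCKO (mean 269).

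Other genes of the pathway were taken from a list of 53, of which 48 could be tested. This list was also chosen with earlier results known. Of these 9 were higher, 7 were lower and 32 did not pass, or 16 of 48 beside the 17.7% of all tested genes. Their median log2 fold change was 0.11, beside 0.00 over all tested genes, and 23 of the 48 did not overlap, beside 38.3% of all tested genes. With replicates 1 and 2 summed, 4 of the 48 passed, beside 2.79% of all tested genes, and with replicates 1 and 2 alone, 34 passed, beside 45.1%. The 3 other ligand genes that could be tested gave 0 calls by edgeR; 1 of the 3 had an unadjusted p under 0.05, and DESeq2 called 1. Mstn, Nodal, Acvr1c and Lefty2 had no read in any library.

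Among 8 tested genes of latency and activation, 2 rose and 2 fell, beside 9.07% of all tested genes that were higher and 8.63% that were lower. Lrrc32, which encodes GARP, an anchor of latent TGF-beta at the cell surface, was at 51.6, 48.6 and 165 CPM in WT and 227, 232 and 368 CPM in TCKO. It rose by 1.65 on the log2 scale (SE 0.47, fold 3.13, adjusted p = 0.0465, edgeR), and WT replicate 3 stood between the other WT libraries and TCKO. Without WT replicate 3 the rise was 2.46 (fold 5.51, adjusted p = 0.000947), and the call was lost when any other library was left out (adjusted p from 0.0801 to 0.149). Ltbp3, which assists secretion of latent TGF-beta, rose by 0.97 (SE 0.13, adjusted p = 0.00285). Ltbp4 fell by 0.62 (SE 0.11, adjusted p = 0.00917). Itgb5, the integrin beta 5 subunit, fell by 0.86 (SE 0.24, adjusted p = 0.0424), a call lost without WT replicate 1 or 2 or TCKO replicate 1 or 2 (adjusted p from 0.0723 to 0.147).

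Of 5 other receptors and co-receptors, 1 changed, beside 17.7% of all tested genes. Eng, encoding the co-receptor endoglin, was at 236, 230 and 240 CPM in WT and 80.4, 74.8 and 104 CPM in TCKO, and fell by 1.44 on the log2 scale (SE 0.12, 2.72-fold, adjusted p = 0.000398, edgeR). It passed in 17 of 17 alternative analyses. Of 3 other antagonists 1 changed, beside the same 17.7%: Bambi, a receptor-like protein without kinase activity, rose by 0.80 (SE 0.18, adjusted p = 0.0190), and did not pass without WT replicate 1 (0.0777), WT replicate 2 (0.0648) or TCKO replicate 1 (0.0598).

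Among 14 SMADs and SMAD regulators, 2 rose and 2 fell, beside 9.07% of all tested genes that were higher and 8.63% that were lower. The 4 were all regulators. Smurf2, a ubiquitin ligase that acts on SMADs and receptors, was at 187 to 197 CPM in WT (lowest to highest) and 94.8 to 101 CPM in TCKO. It fell by 0.98 on the log2 scale (SE 0.07, adjusted p = 0.000142, edgeR). Ski and Skil, related co-repressors of SMADs, went in opposite directions: Ski fell by 0.52 (SE 0.10, adjusted p = 0.0123) and Skil rose by 0.52 (SE 0.10, adjusted p = 0.00911). The Ski call was lost without WT replicate 1 (0.0547), WT replicate 2 (0.0608) or TCKO replicate 1 (0.0519), and the Skil call without WT replicate 2 (0.0505). Tgif1, another co-repressor, rose by 0.59 (SE 0.10, adjusted p = 0.00557). The signal-carrying Smad2 (log2 fold change -0.17, SE 0.12, adjusted p = 0.369), Smad3 (-0.25, SE 0.09, adjusted p = 0.105) and Smad4 (0.08, SE 0.09, adjusted p = 0.603) did not pass. The inhibitory Smad7, itself induced by the pathway, ranged from 53.5 to 105 CPM in WT and from 49.8 to 114 CPM in TCKO, with replicate 3 highest in each genotype, and differed by 0.01 (SE 0.36, adjusted p = 0.986).

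Among 15 transcriptional targets, 4 rose and 2 fell, beside the same 9.07% and 8.63%. Cnn1, encoding calponin of the contractile apparatus, was at 82.8, 79.5 and 106 CPM in WT and 304, 334 and 296 CPM in TCKO, and rose by 1.80 on the log2 scale (SE 0.12, fold 3.48, adjusted p = 0.00013, edgeR). Bhlhe40, a transcription factor, rose by 1.17 (SE 0.20, fold 2.25, adjusted p = 0.00737), with 1.55 within replicates 1 and 2 and 0.52 within replicate 3. Its call was lost with replicates 1 and 2 summed (adjusted p = 0.125), also when a replicate block was added (0.0709). Nox4, an NADPH oxidase with at most 6.62 CPM in any library, rose by 1.45 (SE 0.35, adjusted p = 0.0265), a call lost without WT replicate 1 or TCKO replicate 1 or 2 (adjusted p from 0.0694 to 0.0933). Tagln, another contractile gene, rose by 0.73 (SE 0.12, adjusted p = 0.00553). Cdkn2b, which encodes the cell-cycle inhibitor p15, fell by 1.11 (SE 0.17, 2.16-fold, adjusted p = 0.00454), and Snai2, a transcription factor, fell by 0.84 (SE 0.08, adjusted p = 0.000696).

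Ccn2, a matricellular protein gene widely used as a target, overlapped between genotypes. It held 2379.9, 2315 and 2298 CPM in WT and 1648, 1649.9 and 2629 CPM in TCKO. Its difference of -0.24 (SE 0.18, adjusted p = 0.416) passed without TCKO replicate 3, the single library above WT (adjusted p = 0.00216).

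**Figure D5:**
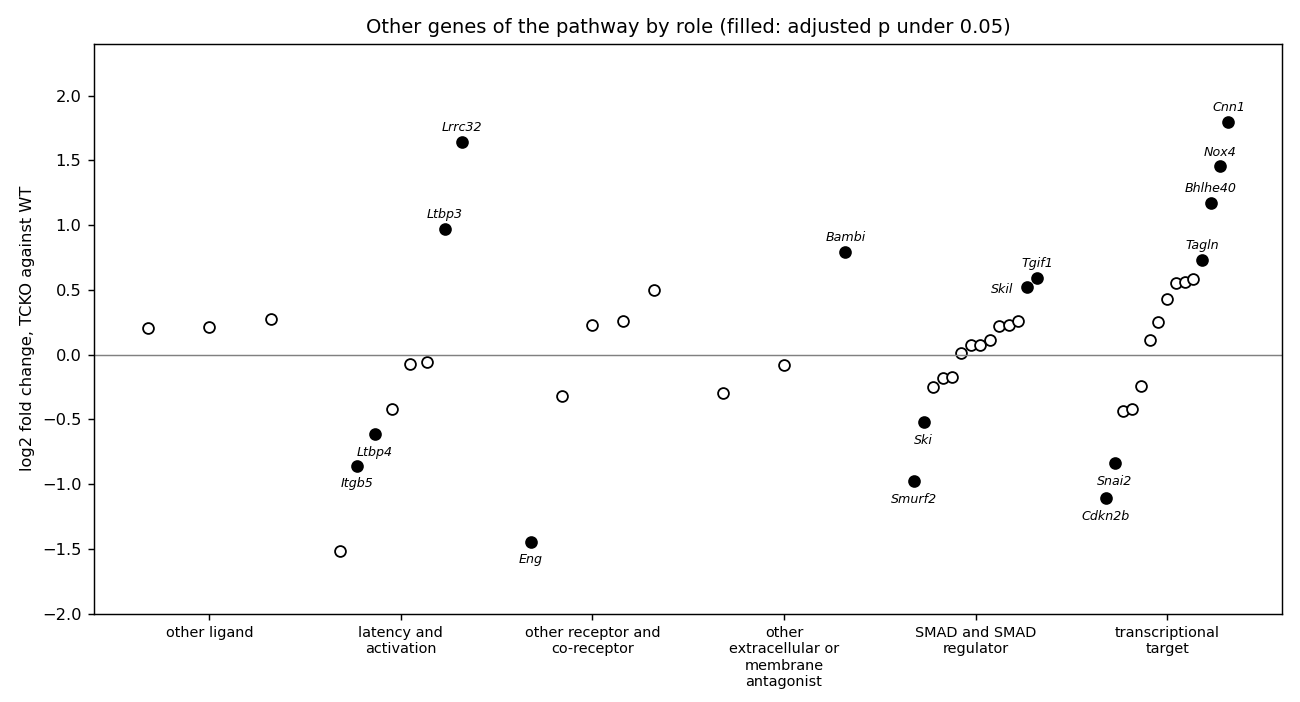
Log2 fold change between TCKO and WT (y axis) of the 48 tested other pathway genes, grouped by role; filled points passed the edgeR test (adjusted p under 0.05) and are named. Within latency and activation, SMAD regulators and targets, filled points lie on both sides of 0.

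The genes whose log2 CPM followed that of Ltbp2, the called member with the largest change when all 6 libraries were used, most closely over the 6 libraries were Anpep (Pearson r = 0.995), Kbtbd4 (r = 0.993) and Abcc10 (r = 0.993), among 10955 genes with a mean of at least 50 counts. Without WT replicate 3, which was far above the other libraries for Ltbp2, r over 5 libraries was 0.990 for Anpep, 0.979 for Kbtbd4 and 0.976 for Abcc10. A correlation does not compare the size of a change. The log2 fold change was -1.53 for Anpep, -0.13 for Kbtbd4 and -0.37 for Abcc10, beside -1.54 for Ltbp2. The correlations are descriptions over libraries that share genotype and replicate set.

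Among the marker lists of other cell types, only that of chondrocytes was called in all its genes. Calls in these lists stand beside 9.07% of all tested genes that were higher and 8.63% that were lower. All 8 chondrocyte markers were lower in TCKO, and their summed level was 6450.4 to 8315 CPM in WT and 745 to 1019.6 CPM in TCKO. Col2a1, the main cartilage collagen, fell by 3.13 on the log2 scale, and Acan, encoding aggrecan, was also called lower. Of 10 macrophage and other blood cell markers, 3 were lower, with sums of 409 to 770.4 CPM in WT and 166 to 580.1 CPM in TCKO, and replicate 3 was lowest in each genotype. Lyz2 and Csf1r were the most counted of these. Osteoblast markers, led by Col1a1 and Col1a2, summed to 32199 to 33707 CPM in WT and 17964 to 32009 CPM in TCKO. Of the 9 that could be tested, 2 were higher (Spp1, encoding osteopontin, 6.13-fold, and Msx2, a transcription factor) and 3 were lower (Runx2, Col1a1 and Alpl, alkaline phosphatase, which fell by 3.54 on the log2 scale). The sum joins opposite changes: mean Spp1 went from 1168 CPM in WT to 7165 CPM in TCKO, and mean Col1a1 from 22334 to 14585 CPM. The 4 not called all had log2 fold changes below 0. Among them were Col1a2 (-0.85, adjusted p = 0.0676, edgeR) and the transcription factor gene Sp7 (-1.59, adjusted p = 0.0877, edgeR), both without overlap. The mature osteoblast marker Bglap had at most 2 counts in any library. Among endothelial markers Kdr rose by 6.12 on the log2 scale and had the most counts, followed by Tek, while Pecam1 and Cdh5 had at most 7 counts in any library. Pericyte and smooth muscle markers, led by Cspg4 and Myh11, summed to 158 to 274 CPM in WT and 93.9 to 133 CPM in TCKO. Of the 3 tested, Cspg4 alone passed (mean 183 CPM in WT and 89.1 CPM in TCKO), and Myh11 had 8.14 and 11.2 CPM. Skeletal muscle markers, led by Acta1 and Des, summed to 7.48 to 25.5 CPM in WT and 35.6 to 79.8 CPM in TCKO. Acta1 carried that difference, with a mean of 6.42 CPM in WT and 55.8 CPM in TCKO, and was the 1 of 3 tested that passed; Ttn had 2.08 and 1.29 CPM, and Myog and Myod1 had at most 20 counts in any library. Adipocyte markers, led by Cebpa and Pparg, summed to 24.0 to 32.7 CPM in WT and 11.7 to 18.9 CPM in TCKO, with Adipoq and Plin1 at 0 counts. Neither Cebpa nor Pparg passed. The part of these cell types in the values of the 10 genes was not tested.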

How the data were processed

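Poly(A) RNA was sequenced in 3 WT and 3 TCKO libraries, with groups and replicate numbers taken from the sample titles. The authors aligned reads to GRCm38 (Ensembl release 99) with STAR 2.7.0e and counted them per gene with featureCounts 2.0.0, and the deposited values are raw counts without normalization. The library kit keeps strand, but whether counting used it is not given in the sources used here, so genes that overlap another gene on the opposite strand are less certain (Ltbp3, Eng and Tagln among those named). All 10 members and their positions were read from that table, which has 0 unassigned sample columns.

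The tests used edgeR 4.0.16 under R 4.3.3: filterByExpr (13826 genes kept), TMM scaling and the quasi-likelihood test over 6 libraries without covariates, with Benjamini-Hochberg adjustment over all tested genes. The SE was derived from the F statistic. A gene was called at adjusted p under 0.05. Fold changes over 2 are given separately. Shares and the ratio were compared by two-sided exact permutation tests (scipy 1.17.1). The edgeR and DESeq2 fits were also run on simulated counts of 6 independent libraries with a common dispersion. The closeness of replicates 1 and 2 was not simulated, nor were the shares, the ratio or the block and summed fits. Libraries sharing a number deviated together (correlations of 0.204, 0.214 and 0.347 across genes), so a replicate block was fitted as an alternative; since replicates 1 and 2 crossed between genotypes correlated as well (0.188 and 0.225), the numbers mainly separate replicate 3. Other alternatives were RLE and upper-quartile scaling, other count filters, DESeq2 1.42.0, a robust fit, leaving out each library, and summing or selecting replicates 1 and 2.

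The members, lists and tests were chosen with earlier results of these data known. Named genes were the members, other pathway genes past the threshold with a fold over 2, Tet1 to Tet3, the 2 most counted markers of each list, and the 3 genes most like the called member of largest change. Pathway genes called at under 2-fold were named after their values were seen. So were Inhbb, Fstl3, Smad2, Smad3, Smad4, Smad7 and Ccn2, and the markers Bglap, Spp1, Msx2, Runx2, Sp7, Alpl, Pecam1, Cdh5, Ttn, Myog, Myod1, Adipoq and Plin1. Counts of 3 or fewer (0.295 to 0.374 CPM) cannot be told from 0; this covers counting error only, since PCR copies of a molecule were counted as separate reads.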

Additional observations from a re-analysis of the deposited data

How the results depend on the processing

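No member changed direction in any of the 17 alternatives. Summing replicates 1 and 2 left 386 calls among all tested genes (2447 in the reported analysis), 1 of 10 members (7) and 4 of 48 other pathway genes (16), which leaves 2 libraries per genotype. With the sums and a replicate block there were 1150 calls over all genes, 5 among members and 13 among other pathway genes; of the members called in the reported analysis Tgfb2 (adjusted p = 0.0586) and Fst (0.128) did not pass. With replicates 1 and 2 alone there were 6237 calls over all genes and 34 among other pathway genes. Leaving out each library gave 1153 to 3122 calls over all genes, 5 to 9 among members and 11 to 22 among other pathway genes, and calls over all genes fell by more than 1.5 times without WT replicate 1 (1236), WT replicate 2 (1153), TCKO replicate 1 (1292) or TCKO replicate 2 (1342). With the replicate block on all 6 libraries 9 members and 22 other pathway genes passed, Tgfb3 and Ltbp1 being the added members (both lost on the sums, 0.0622 and 0.179), and no named call was lost. DESeq2 called 8 members, Tgfb3 being the added member (adjusted p = 0.0129). Ltbp2 did not pass the robust fit (adjusted p = 0.0759), nor did Lrrc32 (0.101) or Itgb5 (0.0667). Smad7 changed sign with the replicate block (-0.0203), with replicates 1 and 2 alone (-0.0919) and when libraries were left out in turn (-0.45 to 0.38), and passed in none of these.

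The isoform shares and the Inhba to Fst ratio kept their direction in every alternative run. Leaving out each library gave differences of 2.75 to 3.98 percentage points for Tgfb1, 3.42 to 5.30 for Tgfb2, -9.19 to -6.17 for Tgfb3, and 2.10 to 2.37 (log2) for the ratio. The replicate block, a sign permutation of 3 pairs, could not give a p below 0.25.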
